A study of Mus with 9 samples.

Results

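The genes described here code for the proteins that bring pyruvate into mitochondria and run the tricarboxylic acid (TCA) cycle, with their regulators and the malate, isocitrate, glutamate and aspartate enzymes at their border. They were chosen by gene name, as 34 of the 54532 genes in the deposited table, and all 34 passed the filter on low counts that left 15902 genes for testing. Kidney RNA from male C57BL/6 mice was sequenced in 9 libraries, 3 in each of 3 groups. All mice had lost 1 kidney by unilateral nephrectomy at the age of 18 months. The 18 mo group was taken 1 week after surgery without injections, the 21 mo group received intraperitoneal saline for 12 weeks, and the 21 mo/O304 group received O304, an activator of the energy-sensing kinase AMPK, at 10 mg/kg per day for 12 weeks. The 18 mo mice differed from the others in age, time since surgery and injections at once, so these cannot be told apart in comparisons with it, while the 21 mo and 21 mo/O304 groups differed in O304 alone by design.

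Pyruvate enters the mitochondrial matrix through a carrier made of MPC1 and MPC2. There the pyruvate dehydrogenase complex turns it into acetyl-CoA, or pyruvate carboxylase turns it into oxaloacetate. Kinases switch the complex off by phosphorylation, phosphatases switch it on again, and the TCA cycle oxidizes acetyl-CoA to feed the respiratory chain. The proximal tubule, the most abundant segment of the kidney cortex, is rich in mitochondria, makes glucose from lactate and glutamine, and draws most of its energy from fatty acids.

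Libraries held between 15636378 and 18396725 counts, so that 1 count was worth 0.0458 to 0.0669 CPM (counts scaled to library size, here by the trimmed mean of M-values), and the lowest count of any of the 34 genes was 77, for Pdp1 in one library. The biological coefficient of variation over all tested genes was 18.1% for 18 mo mice, 44.1% for 21 mo mice and 20.6% for 21 mo/O304 mice. In the 21 mo group, replicates 2 and 3 stood apart from replicate 1 and from the other groups in markers of the proximal tubule and of tubule injury. Not every marker list followed this split. Neutrophil markers summed to 57.1, 18.6 and 51.5 CPM in 21 mo replicates 1, 2 and 3, and to 6.29 to 19.9 CPM in the other groups. The summed CPM of 10 proximal tubule markers (Slc34a1, Lrp2 and others) lay between 13196.5 and 16999.9 in 18 mo mice and between 12977.0 and 15031.3 in 21 mo/O304 mice, against 13461.6, 6666.0 and 1733.4 in 21 mo replicates 1, 2 and 3. The sum of 5 tubule injury markers (Havcr1, Lcn2, Krt20, Vcam1 and Sox9) was 70.6, 1090.2 and 1525.2 CPM in the same 3 libraries, against 41.5 to 61.8 in the other 6 libraries. Replicate numbers only name libraries. In bulk tissue, fewer cells of a type and less RNA per cell cannot be told apart.

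The 34 genes lay on 16 chromosomes, with Pdha1, Pdk3 and Idh3g on the X chromosome. In FPKM (fragments scaled to gene length and library size, which allows levels to be compared between genes), the most abundant in 18 mo kidneys was Mdh1, cytosolic malate dehydrogenase, at 453.5 ± 34.2 FPKM (SD, n = 3). Idh2 followed at 199.3 ± 22.0 FPKM and Idh1 at 188.1 ± 44.3 FPKM, the mitochondrial and cytosolic NADP-linked isocitrate dehydrogenases, whose levels did not differ beyond their spread. Pcx, pyruvate carboxylase, stood at 162.5 ± 32.4 FPKM and Ogdh, the first subunit of the 2-oxoglutarate dehydrogenase complex, at 120.5 ± 5.3 FPKM. The lowest levels were those of Pdp1, a pyruvate dehydrogenase phosphatase, at 1.25 ± 0.441 FPKM, and of the mitochondrial malic enzymes Me3, at 2.47 ± 0.713 FPKM, and Me2, at 2.99 ± 0.314 FPKM. For 13 of the genes another annotated gene overlaps the gene body, and since strand is not given for the counting, reads there could be shared. The overlap with most reads is that of Fh1, fumarase, at a mean of 196 CPM over the 9 libraries, with Kmo at 143 CPM.

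Over the 34 genes, the 3 mice of the 21 mo group differed widely from one another. The median log2 ratio of the genes to their mean in the 18 mo group was 0.02 in 21 mo replicate 1, -0.48 in replicate 2 and -1.09 in replicate 3. In the 18 mo libraries themselves it was -0.04, 0.08 and -0.07, and in the 21 mo/O304 libraries it was 0.04, -0.07 and -0.02. Thus 1 of the 21 mo kidneys was level with the 18 mo and the treated ones, and the other two were lower. Replicate 3 of 21 mo held the lowest value of all 9 libraries for 28 of the 34 genes, and within the 21 mo group it was the lowest for 31 genes while replicate 1 was the highest for 32. The same counts were not made over all tested genes, so they do not set the 34 genes apart. Summed over the 34 genes, the level was 10392, 7122 and 4562 CPM in the 3 libraries of 21 mo mice, against 9639 to 10680 CPM in 18 mo and 9713 to 10455 CPM in 21 mo/O304 mice.

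**Figure D1:**
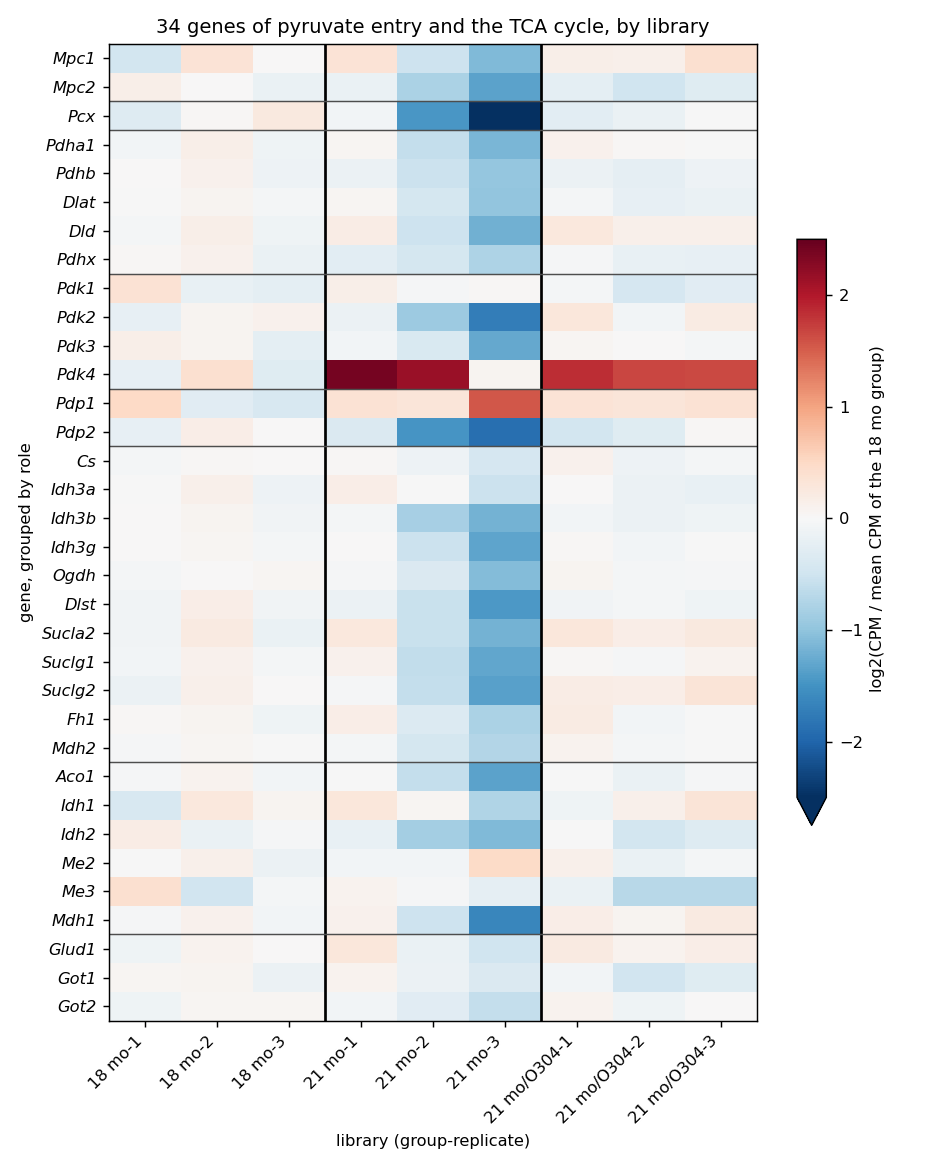
Each row is 1 of the 34 genes, grouped by role, each column is 1 library, and color gives log2 of its CPM over the mean CPM of the 18 mo group. The column of 21 mo replicate 3 is blue in most rows, with 29 of the 34 genes below the 18 mo range, a count not made over all genes. Pdk4 is high in 21 mo replicates 1 and 2 and in all 3 21 mo/O304 libraries.

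The spread itself was larger in 21 mo mice. The median coefficient of variation of the 34 genes was 9.63% in 18 mo, 39.6% in 21 mo and 6.52% in 21 mo/O304 mice, beside 12.5%, 25.9% and 13.8% over all tested genes. For 32 of the 34 genes the 21 mo group had the largest value of the 3 groups, a count that was not made over all genes. Within 21 mo it ranged from 6.48% for Pdk1, a pyruvate dehydrogenase kinase, to 90.8% for Pcx.

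The 21 mo libraries with lower levels of these genes were also those with lower proximal tubule markers. The log2 ratio of the summed proximal tubule markers to the 18 mo mean was -0.19, -1.20 and -3.15 in 21 mo replicates 1, 2 and 3, and between -0.24 and 0.15 in the other 6 libraries. The summed level of 7 macrophage markers was 701.4, 1135.8 and 3432.5 CPM in 21 mo mice, against 275.1 to 548.7 CPM in the other libraries. That of 8 fibroblast markers was 142.6, 587.4 and 1404.0 CPM, against 117.4 to 285.2 CPM. None of the marker genes of these 3 lists or of the injury list was at 0 in all libraries, and 9 of the 10 proximal tubule markers had a lower fitted level in 21 mo than in 18 mo mice. The part of cell composition and of tubule injury in the levels of the 34 genes was not tested.

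**Figure D2:**
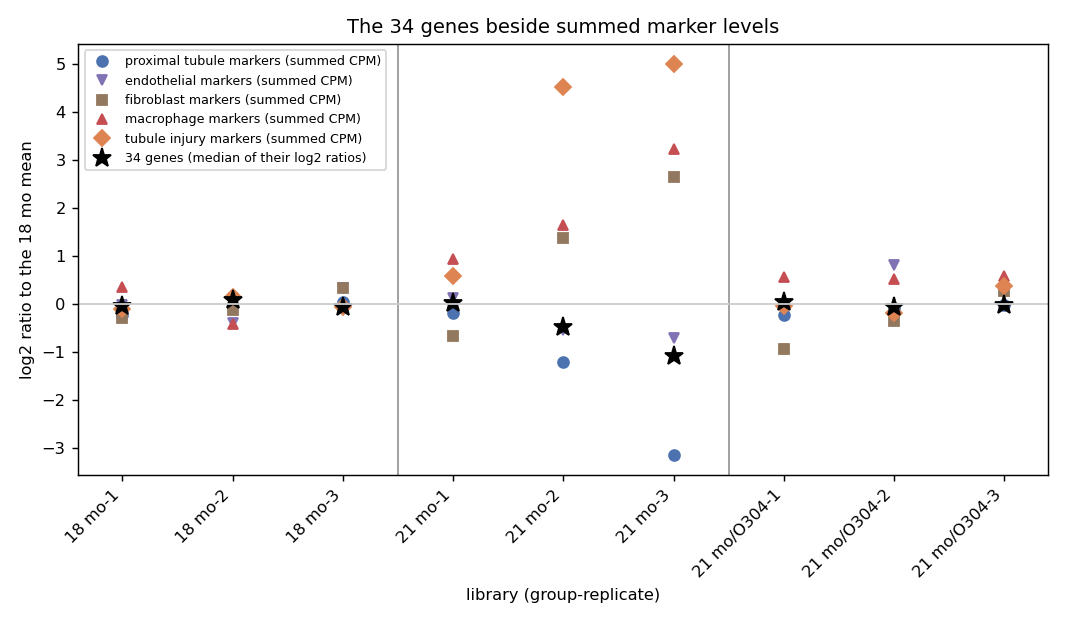
For each of the 9 libraries the plot shows the log2 ratio to the 18 mo mean of the summed CPM of 5 marker lists, and stars mark the median over the 34 genes. The stars stay near 0 except in 21 mo replicates 2 and 3 (-0.48 and -1.09), where proximal tubule markers are at -1.20 and -3.15 and injury markers at 4.52 and 5.01.

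The comparison of 21 mo with 18 mo mice holds 3 further months of age, a longer time since surgery and saline injections together. In it, no gene of the 34 passed an adjusted p of 0.05 in edgeR's quasi-likelihood test. Over all genes tested, 3 did, or 0.0189%. Fitted levels were lower in 21 mo mice for 30 of the 34 genes and higher for Pdk1, Pdk4, Pdp1 and Me2. The median log2 fold change (log2FC) was -0.41, beside 0.03 over all genes, of which 47.3% were lower. At an unadjusted p under 0.05, 7 of the genes were lower (20.6%) and 2 were higher (5.88%), beside 12% lower and 14.0% higher over all genes. All 3 libraries of 21 mo were below all 3 of 18 mo for 7 genes, or 20.6%, with 15.3% of all genes in that position, and none was above, with 13.5% of all genes there. DESeq2 called 2 of the 34 genes, Pdk4 (adjusted p = 0.00454) and Pdp2 (adjusted p = 0.0322). It called 7.29% of the 28225 genes with at least 1 count, a wider set than the 15902 genes of edgeR. Limma voom with sample weights called 25 of them, or 73.5%, and 52.9% of all genes. These counts depended on 21 mo replicate 1. Without it, edgeR called 18 of the 34 genes, or 52.9%, beside 25.4% of all genes, and the median was -0.73. Without 21 mo replicate 3 it called Pdk4 alone, or 2.94%, beside 0.806% of all genes, and the median was -0.20.

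The comparison of 21 mo/O304 with 21 mo mice, which asks what O304 did at the same age, shares the 21 mo group with the first. Values set side by side therefore are not independent. Fitted levels were higher with O304 for 27 of the 34 genes and lower for Pdk1, Pdk4, Pdp1, Idh3a, Me2, Me3 and Got1, with a median log2FC of 0.39, beside -0.02 over all genes. No gene of the 34 passed an adjusted p of 0.05, and neither did any other gene (0%) by edgeR. Unadjusted, 4 were higher (Pdhx, Pdk2, Pdp2 and Suclg2), or 11.8%, beside 8.27% of all genes, and 0 were lower, beside 12.4%. All 3 libraries with O304 lay above all 3 without it for Pdhx, Pdk2, Pdk3, Dlst and Suclg2, or 14.7%, beside 10.8% of all genes, and below for Pdk1 alone, beside 10.5%. DESeq2 called none of the 34, with 4 at an unadjusted p under 0.05, while voom with sample weights called 26, or 76.5%, and 41.1% of all genes. Without 21 mo replicate 1, 20 of the 34 genes were called, or 58.8%, beside 23.1% of all genes, and the median was 0.68. Without 21 mo replicate 3 none was called, beside 0.0062% of all genes, and the median was 0.23.

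Adipocyte markers such as Adipoq stood higher in the 21 mo/O304 libraries, but not every marker of the list did. Ucp1 was at 0, 0.0596 and 0 CPM there and at 0.339 CPM in 18 mo replicate 3. In 21 mo/O304 replicate 2, Lep (0.0596 CPM) and Cidea (0.119 CPM) were below 18 mo replicate 3 (0.113 and 0.396 CPM). Adipoq, the fat cell hormone adiponectin, was at 0, 0 and 1.41 CPM in 18 mo, 0.0669, 0 and 0.504 CPM in 21 mo and 21.6, 1.97 and 15.1 CPM in 21 mo/O304 mice. For Adipoq the treated kidneys were above all 6 others, replicate 2 by the least. The sum of 9 such markers was 90.5, 46.2 and 82.9 CPM in 18 mo, 129.1, 55.2 and 36.3 CPM in 21 mo and 297.5, 111.2 and 252.0 CPM in 21 mo/O304 mice. In this sum 21 mo/O304 replicate 2 was below 21 mo replicate 1, so these groups overlapped. Fabp4, also an endothelial gene, made up 89.7, 46.0 and 73.5 CPM of the sum in 18 mo mice. In 21 mo mice Fabp4 was at 127.6, 52.5 and 30.1 CPM, and in 21 mo/O304 mice at 147.4, 100.8 and 129.2 CPM. The part of adipocyte RNA in the levels of the 34 genes was not tested.

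Between 21 mo/O304 and 18 mo mice the 34 genes were split evenly, 17 lower and 17 higher, with a median log2FC of -0.01. No gene of the 34, and none of all tested (0%), passed an adjusted p of 0.05 in edgeR, where the spread of the 21 mo group also entered the fit. Unadjusted, Pdk4 alone was higher, beside 4.33% of all genes, and 0 were lower, beside 5.33%. DESeq2 and voom with sample weights called Pdk4 alone, or 2.94%, beside 0.446% (of 28225 genes) and 2.61% (of 15902 genes). On the 6 libraries compared, without the 21 mo group, edgeR also called Pdk4 alone, beside 0.144% of the genes tested there. Groups did not overlap for Mpc2 and Pdhb, which were lower, beside 13.3% of all genes, and for Pdk4, Suclg2 and Glud1, which were higher, beside 13.2% of all genes. For 17 of the 34 genes every 21 mo/O304 library was within or above the range of the 18 mo libraries. The share of all genes in that position was not computed, so nothing is read from this count.

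**Figure D3:**
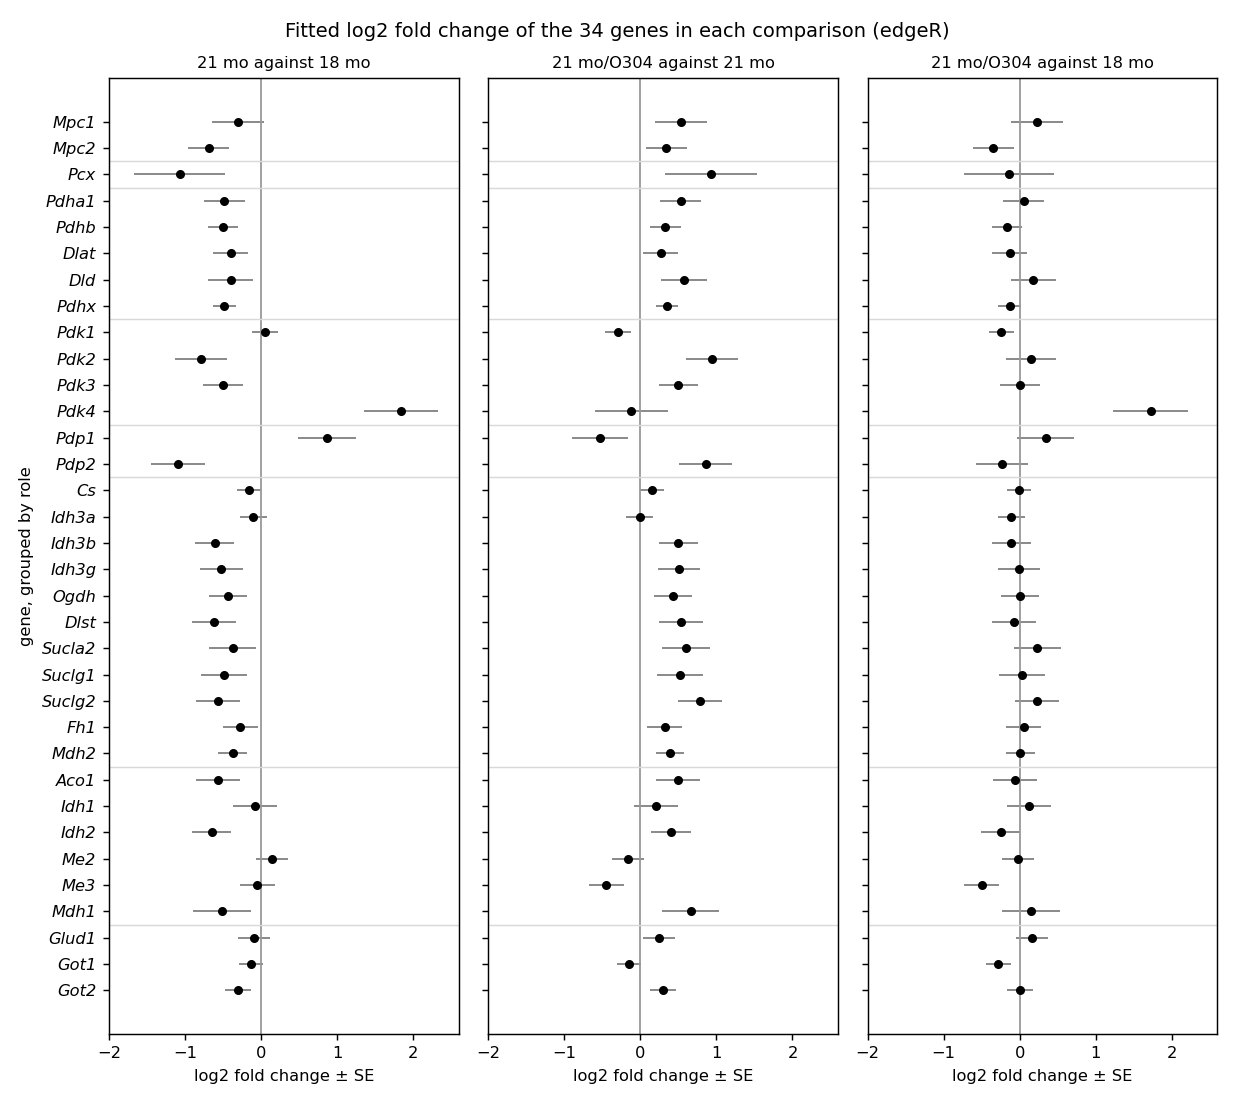
Dots are fitted log2FC values with SE of the 34 genes in the 3 comparisons, each named first group against second. Most dots are left of 0 for 21 mo versus 18 mo (30 of 34), right of 0 for 21 mo/O304 versus 21 mo (27 of 34) and around 0 for 21 mo/O304 versus 18 mo, where Pdk4 stands alone at 1.72.

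Both subunits of the mitochondrial pyruvate carrier had lower fitted levels in 21 mo than in 18 mo mice. Mpc2 was at 374.0, 341.2 and 304.5 CPM in 18 mo, 302.6, 196.8 and 134.1 CPM in 21 mo and 287.7, 239.9 and 274.6 CPM in 21 mo/O304 mice. Both 21-month-old groups lay below every 18 mo library, although 21 mo replicate 1 did so by a small margin. The log2FC of Mpc2 was -0.69 (SE of 0.27, adjusted p = 0.153, edgeR) for 21 mo versus 18 mo and 0.34 (SE of 0.27, adjusted p = 0.461) for 21 mo/O304 versus 21 mo. Mpc1, its partner, overlapped between all groups, at means of 42.4, 34.4 and 49.6 CPM.

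Pcx, which makes oxaloacetate for gluconeogenesis and to refill the cycle, had the widest spread. It was at 619.9, 787.5 and 920.1 CPM in 18 mo, 738.8, 281.4 and 86.5 CPM in 21 mo and 649.1, 690.5 and 775.0 CPM in 21 mo/O304 mice. One 21 mo kidney thus was in the middle of the 18 mo range, and the other two were far below it. For Pcx the log2FC was -1.07 (SE of 0.60, adjusted p = 0.283) for 21 mo versus 18 mo and 0.93 (SE of 0.60, adjusted p = 0.372) for 21 mo/O304 versus 21 mo, so that neither exceeded the spread between mice.

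The 5 subunits of the pyruvate dehydrogenase complex were lower together in 21 mo mice, by log2FC values of -0.50 to -0.40 against 18 mo mice, and none passed the adjusted test. Their summed level was 1158.0, 770.3 and 522.8 CPM in 21 mo, against 1039.3 to 1218.0 CPM in 18 mo and 1098.3 to 1192.4 CPM in 21 mo/O304 mice. Pdhx, the subunit that tethers dihydrolipoamide dehydrogenase to the core, was at 43.5, 46.2 and 38.1 CPM in 18 mo, 35.3, 31.4 and 24.8 CPM in 21 mo and 41.8, 37.5 and 37.1 CPM in 21 mo/O304 mice. Its 21 mo libraries lay below those of both other groups. It had the smallest error of the complex, with log2FC values of -0.48 (SE of 0.15, adjusted p = 0.0968) and 0.35 (SE of 0.15, adjusted p = 0.227). Pdhb, the beta subunit of the decarboxylase, was at 177.3, 190.8 and 162.4 CPM in 18 mo, 160.8, 122.6 and 90.8 CPM in 21 mo and 159.4, 150.3 and 161.0 CPM in 21 mo/O304 mice. All 6 libraries of 21-month-old mice were below the 18 mo range, those of 21 mo/O304 mice by a little. Its partner Pdha1, the alpha subunit that carries the phosphorylation sites, was at 377.7, 437.3 and 368.4 CPM, 408.3, 260.3 and 178.2 CPM, and 427.8, 404.3 and 389.6 CPM in the same order of groups. In this gene the treated kidneys were inside the 18 mo range and 21 mo replicate 1 was too. Dlat, the acetyltransferase core, and Dld, the dehydrogenase shared with the 2-oxoglutarate complex, overlapped between 21 mo and both other groups.

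The 4 pyruvate dehydrogenase kinases, which turn the complex off, went different ways. Pdk4 lies at chr6:5483351-5496309 on the minus strand (GRCm38) and is known as the kinase induced by fasting and fatty acids. It was at 16.7, 25.3 and 15.4 CPM in 18 mo, 100.8, 85.4 and 19.9 CPM in 21 mo and 69.0, 60.4 and 59.8 CPM in 21 mo/O304 mice. The 3 treated kidneys were close together and all above the 18 mo range, while 2 of the 21 mo kidneys were higher still and 21 mo replicate 3 was inside the 18 mo range. Its log2FC was 1.84 (SE of 0.49, adjusted p = 0.0829) for 21 mo versus 18 mo, 1.72 (95% interval 0.61 to 2.84, SE of 0.49, adjusted p = 0.345) for 21 mo/O304 versus 18 mo and -0.12 (SE of 0.48, adjusted p = 0.896) for 21 mo/O304 versus 21 mo. Fat tissue also expresses Pdk4, and the part of adipocyte RNA (given above) in its level was not tested. The calls of Pdk4 depended on the fit. For 21 mo versus 18 mo the call was made by DESeq2 (above), with every gene of at least 1 count kept, by voom with sample weights, and without 21 mo replicate 3, where the log2FC was 2.27 (adjusted p = 0.0116). For 21 mo/O304 versus 18 mo it was made by DESeq2 (adjusted p = 0.048), by edgeR on the 6 libraries compared (adjusted p = 0.0297), by voom with sample weights (adjusted p = 0.0203) and without 21 mo replicate 3 (adjusted p = 0.0322). For 21 mo/O304 versus 21 mo the sign turned with the setting.

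Pdk2, the most abundant kinase, at chr11:95026258-95041354 on the minus strand, had a lower fitted level in 21 mo than in 18 mo mice, the opposite sign to Pdk4. It was at 232.8, 281.1 and 286.1 CPM in 18 mo, 240.1, 142.3 and 80.2 CPM in 21 mo and 323.0, 254.9 and 309.2 CPM in 21 mo/O304 mice. All treated kidneys were above all 21 mo kidneys, and 21 mo replicate 1 was inside the 18 mo range. For Pdk2 the log2FC was -0.79 (SE of 0.34, adjusted p = 0.179) for 21 mo versus 18 mo and 0.94 (SE of 0.34, adjusted p = 0.194) for 21 mo/O304 versus 21 mo, the largest difference of the 34 genes in the latter comparison. Pdk3, the X-linked kinase, had means of 52.8 CPM in 18 mo, 37.5 CPM in 21 mo and 52.8 CPM in 21 mo/O304 mice. In 21 mo mice it was at 50.3, 40.4 and 21.7 CPM, with replicate 1 inside the 18 mo range of 44.5 to 58.2 CPM. Its log2FC for 21 mo versus 18 mo was -0.50 (SE of 0.26, adjusted p = 0.259, edgeR). Pdk1, which responds to hypoxia, was steady in 21 mo mice at 46.4, 40.9 and 42.7 CPM. In 21 mo/O304 mice it was at 40.4, 31.3 and 34.6 CPM, inside or below the 18 mo range of 35.2 to 53.5 CPM. All 3 were below the 21 mo libraries, replicate 1 only just, with a log2FC of -0.29 (SE of 0.17, adjusted p = 0.345, edgeR).

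**Figure D4:**
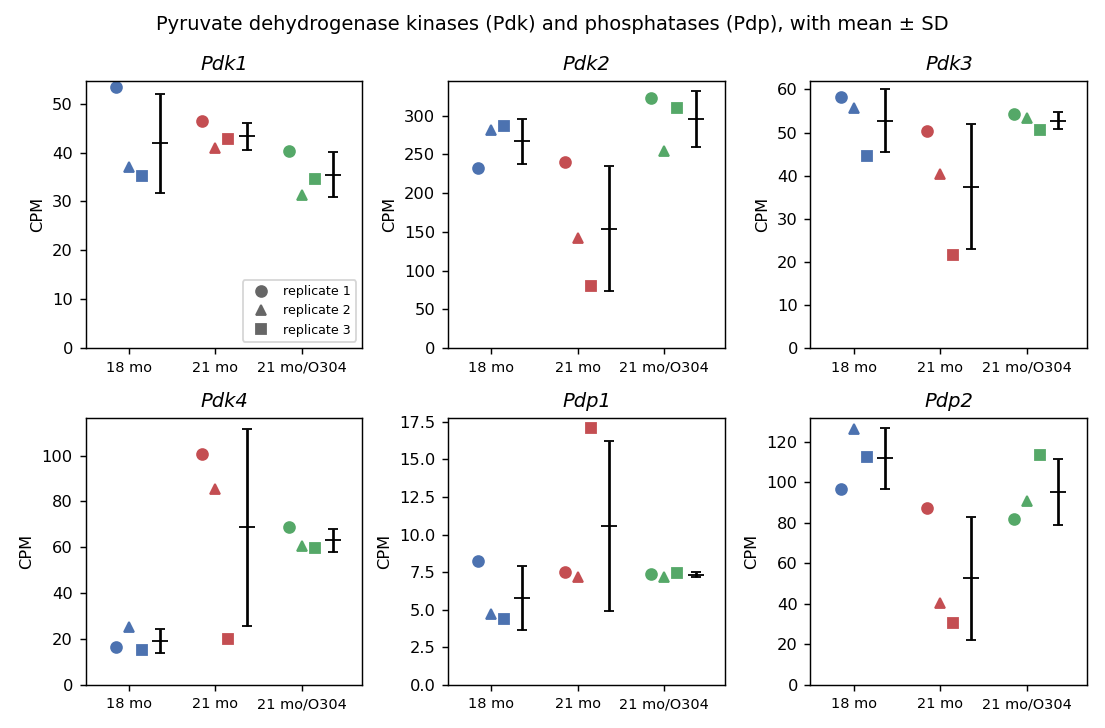
Points are CPM per library of the 4 kinases and 2 phosphatases of the pyruvate dehydrogenase complex, with the group mean and SD in black (n = 3) and the replicate number as the symbol. Pdk4 is between 59.8 and 69.0 CPM in all 21 mo/O304 mice and between 15.4 and 25.3 CPM in 18 mo mice, while Pdk2 and Pdp2 are low in 21 mo replicates 2 and 3.

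A share within the family is relative, and it also rises when the other members of the family fall. As a share of the summed FPKM of the 4 kinases, Pdk4 was 4.40%, 5.87% and 3.75% in 18 mo, 22.0%, 26.9% and 12.6% in 21 mo and 13.3%, 14.0% and 12.3% in 21 mo/O304 mice. All 6 libraries of 21-month-old mice were above all 3 of 18 mo mice, including 21 mo replicate 3, whose Pdk4 level in CPM was not. In that library Pdk4 was at 5.46 FPKM, against 4.55, 7.07 and 4.25 FPKM in 18 mo mice. The summed FPKM of the kinases there was 43.3, against 103.4, 120.3 and 113.2 in 18 mo mice. Its higher share thus goes with a lower sum and not with a higher Pdk4 level. Pdk2 made up 72.7% ± 4.66 in 18 mo, 54.8% ± 4.45 in 21 mo and 68.3% ± 2.36 in 21 mo/O304 mice (SD, n = 3), with 21 mo below both other groups in every library. Shares were computed after the values were seen and are given without a test.

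**Figure D5:**
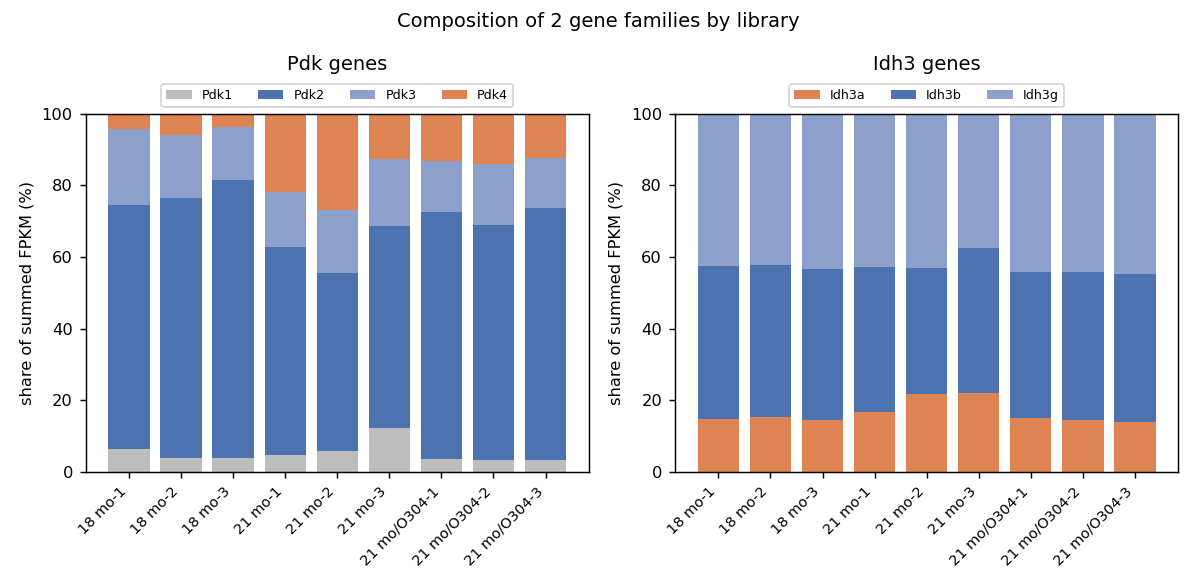
Bars give, for each library, the share in percent of the summed FPKM held by each of the 4 Pdk genes (left) and of the 3 Idh3 genes (right). Pdk4 holds 3.75 to 5.87% in 18 mo and 12.3 to 26.9% in the 6 other libraries, and Idh3a holds 16.6 to 22.0% in 21 mo against 13.8 to 15.4% elsewhere.

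The phosphatases differed in direction. Pdp2, the more abundant one in kidney, at chr8:104591451-104599026 on the plus strand, was at 96.4, 126.1 and 112.5 CPM in 18 mo, 87.0, 40.2 and 30.4 CPM in 21 mo and 81.8, 90.6 and 113.2 CPM in 21 mo/O304 mice. Every 21 mo library was below every 18 mo library, and 21 mo replicate 1 overlapped the treated kidneys. Its log2FC of -1.09 (SE of 0.35, adjusted p = 0.103) for 21 mo versus 18 mo was the lowest of the 34 genes, and it was 0.86 (SE of 0.35, adjusted p = 0.217) for 21 mo/O304 versus 21 mo. Pdp1, the calcium-sensitive phosphatase of muscle, was at 8.24, 4.74 and 4.41 CPM in 18 mo, 7.49, 7.16 and 17.1 CPM in 21 mo and 7.39, 7.15 and 7.45 CPM in 21 mo/O304 mice. Only 21 mo replicate 3 stood out from the range of the others. The log2FC values of Pdp1 were 0.87 (SE of 0.38, adjusted p = 0.185) and -0.53 (SE of 0.37, adjusted p = 0.411), and the latter became 0.01 without that library. Pdp1 was 9.81%, 18.4% and 41.5% of the summed FPKM of both phosphatases in 21 mo mice, against 4.54 to 9.74% in 18 mo and 7.67 to 10.2% in 21 mo/O304 mice.

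The 11 genes of the TCA cycle itself all had lower fitted levels in 21 mo than in 18 mo mice, with log2FC values of -0.62 to -0.10, and 10 of the 11 had higher levels in 21 mo/O304 than in 21 mo mice, Idh3a being at -0.01. None passed the adjusted test in either comparison. Their summed level was 3749.5, 2711.4 and 1808.9 CPM in 21 mo mice, against 3593.8 to 3948.2 CPM in 18 mo and 3655.5 to 3907.8 CPM in 21 mo/O304 mice. Cs, citrate synthase, which condenses acetyl-CoA with oxaloacetate, was at 284.2, 253.8 and 208.3 CPM in 21 mo mice against 271.0 to 286.2 CPM in 18 mo mice.

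The NAD-linked isocitrate dehydrogenase is built of Idh3a, the catalytic subunit, with Idh3b and Idh3g. Idh3b was at 328.0, 339.5 and 304.8 CPM in 18 mo, 311.6, 181.2 and 143.4 CPM in 21 mo and 308.6, 293.0 and 299.9 CPM in 21 mo/O304 mice. In 21 mo replicate 1 it was level with the 18 mo mice, and in the other two it was lower than in any other library. Its log2FC values were -0.61 (SE of 0.26, adjusted p = 0.177) and 0.50 (SE of 0.26, adjusted p = 0.288). Idh3a was at 188.7, 167.3 and 115.1 CPM in 21 mo mice, the first above and the last below the 18 mo range of 154.6 to 182.1 CPM. As a share of the summed FPKM of the 3 genes, Idh3a was 14.7%, 15.4% and 14.4% in 18 mo, 16.6%, 21.8% and 22.0% in 21 mo and 15%, 14.4% and 13.8% in 21 mo/O304 mice. The 21 mo libraries were above all 6 others, a description without a test.

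The 2-oxoglutarate dehydrogenase complex, which shares its design with pyruvate dehydrogenase, is represented by Ogdh and Dlst. Ogdh was at 652.2, 678.7 and 701.5 CPM in 18 mo, 663.1, 530.0 and 317.9 CPM in 21 mo and 710.1, 658.3 and 664.4 CPM in 21 mo/O304 mice. Dlst, its succinyltransferase core, was at 427.1, 504.7 and 423.6 CPM, 409.3, 308.0 and 166.5 CPM, and 425.6, 438.7 and 418.8 CPM in the same order of groups. For Dlst the 21 mo libraries were below both other groups, with replicate 1 just below, while for Ogdh replicate 1 was inside their range. For 21 mo versus 18 mo, log2FC was -0.43 (SE of 0.25, adjusted p = 0.308) for Ogdh and -0.62 (SE of 0.29, adjusted p = 0.21) for Dlst.

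Succinyl-CoA ligase pairs the alpha subunit Suclg1 with a beta subunit that uses ADP (Sucla2) or GDP (Suclg2). Suclg2 was at 375.2, 457.2 and 417.4 CPM in 18 mo, 406.8, 276.5 and 163.4 CPM in 21 mo and 473.1, 467.8 and 523.9 CPM in 21 mo/O304 mice. The treated kidneys were above all 6 others, and 21 mo replicate 1 was inside the 18 mo range. Its log2FC was 0.79 (SE of 0.29, adjusted p = 0.198) for 21 mo/O304 versus 21 mo and -0.56 (SE of 0.29, adjusted p = 0.251) for 21 mo versus 18 mo. The ratio between both beta subunits was steady, with Suclg2 at 63.7% ± 2.14, 61.0% ± 2.08 and 63.7% ± 1.55 of their summed FPKM in 18 mo, 21 mo and 21 mo/O304 mice (SD, n = 3), overlapping between all groups.

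Fh1, which hydrates fumarate, and Mdh2, which regenerates oxaloacetate in mitochondria, close the cycle. Mdh2 was at 401.2, 426.5 and 406.7 CPM in 18 mo, 399.8, 303.5 and 248.9 CPM in 21 mo and 437.4, 398.0 and 409.2 CPM in 21 mo/O304 mice. Every 21 mo library was below the 18 mo range, replicate 1 by the margin of 399.8 to 401.2 CPM. Mdh2 had log2FC values of -0.37 (SE of 0.19, adjusted p = 0.242) and 0.39 (SE of 0.19, adjusted p = 0.272). Fh1, whose counts may hold reads of Kmo, was at means of 204.5, 170.0 and 212.1 CPM in 18 mo, 21 mo and 21 mo/O304 mice.

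Among the enzymes beside the cycle, Idh2, which makes mitochondrial NADPH, was at 603.1, 474.7 and 518.3 CPM in 18 mo, 471.0, 296.7 and 248.7 CPM in 21 mo and 525.2, 385.2 and 427.2 CPM in 21 mo/O304 mice. The 21 mo libraries were below every 18 mo library and overlapped those of treated mice. Its log2FC was -0.65 (SE of 0.26, adjusted p = 0.156) for 21 mo versus 18 mo. Idh1, its cytosolic counterpart, was at 654.7, 552.8 and 317.4 CPM in 21 mo mice, overlapping the 18 mo range of 405.2 to 641.5 CPM. Mdh1, the cytosolic arm of the malate-aspartate shuttle, was at 1171.4, 1287.9 and 1138.7 CPM in 18 mo, 1299.7, 840.3 and 384.9 CPM in 21 mo and 1344.7, 1259.0 and 1392.3 CPM in 21 mo/O304 mice. Replicate 1 of 21 mo again lay with the other groups, slightly above the 18 mo range. The log2FC values of Mdh1 were -0.51 (SE of 0.38, adjusted p = 0.406) and 0.66 (SE of 0.38, adjusted p = 0.327). Aco1, cytosolic aconitase and iron regulatory protein, followed the same order within 21 mo mice at 383.1, 255.9 and 152.7 CPM. So did Me3, a mitochondrial malic enzyme that turns malate into pyruvate, at 39.6, 36.8 and 32.2 CPM, inside the 18 mo range of 26.7 to 49.1 CPM. Me2, the other such enzyme, was at 7.22, 7.22 and 10.5 CPM, and with Pdk1 and Pdp1 it was outside the order of replicate 1 over 2 over 3 that 31 of the 34 genes had in 21 mo mice. How many of all genes had that order was not counted.

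The enzymes that link the cycle to glutamate and aspartate had log2FC values of -0.30 to -0.09 for 21 mo versus 18 mo. Glud1, glutamate dehydrogenase, which feeds glutamine carbon into 2-oxoglutarate for ammonia production in the proximal tubule, was at 444.1, 506.8 and 483.7 CPM in 18 mo, 580.9, 426.9 and 336.6 CPM in 21 mo and 559.4, 508.6 and 534.5 CPM in 21 mo/O304 mice. The treated kidneys were above the 18 mo range, and the 21 mo kidneys lay on both sides of it. The log2FC values of Glud1 were -0.09 (SE of 0.21, adjusted p = 0.805) for 21 mo versus 18 mo and 0.25 (SE of 0.21, adjusted p = 0.488) for 21 mo/O304 versus 21 mo, and the former turned to 0.06 without 21 mo replicate 3. Got1 and Got2, the cytosolic and mitochondrial aspartate aminotransferases, were at means of 120.7, 110.7 and 99.7 CPM and of 305.1, 247.8 and 305.6 CPM in 18 mo, 21 mo and 21 mo/O304 mice.

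A wider list of 36 genes of the same pathway held the remaining cycle enzymes, succinate dehydrogenase, carriers, lactate and lipoate enzymes, and 35 of them were tested. In 21 mo versus 18 mo mice 28 were lower and 7 higher, with a median log2FC of -0.37, and in 21 mo/O304 versus 21 mo mice 27 were higher and 8 lower, with a median of 0.33. None passed the adjusted test in edgeR. At an unadjusted p under 0.05, 5 were lower in the first comparison, or 14.3%, and 2 higher, or 5.71%, beside the 12% and 14% given above for all genes. In the second 4 were higher, or 11.4%, and 3 lower, or 8.57%, beside 8.27% and 12.4%. Slc25a10, the mitochondrial dicarboxylate carrier, was at 469.2, 659.8 and 579.9 CPM in 18 mo, 386.7, 335.3 and 157.2 CPM in 21 mo and 467.5, 434.8 and 489.3 CPM in 21 mo/O304 mice. Here all 3 kidneys of 21 mo mice were below both other groups. Gpt, alanine aminotransferase, was at means of 45.2, 22.5 and 35.7 CPM, with a log2FC of -1.01 (SE of 0.32, adjusted p = 0.103) for 21 mo versus 18 mo. Slc25a22, a glutamate carrier, was higher in 21 mo/O304 than in 21 mo mice without overlap, by a log2FC of 0.90 (SE of 0.23, adjusted p = 0.175), as was Lipt1, a lipoyltransferase, by 0.67 (SE of 0.22, adjusted p = 0.184). Ogdhl, a relative of Ogdh, had a log2FC of -1.27 (SE of 0.28, adjusted p = 0.175) in the same comparison, at 4.71, 4.17 and 3.12 CPM against 8.03, 11.5 and 9.39 CPM.

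Of 11 coactivators and transcription factors known to act on these genes, none passed the adjusted test in edgeR. In 21 mo versus 18 mo mice 6 were lower and 5 higher, with a median log2FC of -0.01. For 21 mo/O304 versus 21 mo mice 7 were higher and 4 lower, with a median of 0.35. Only the 5 with the smallest p in these comparisons are described here. At an unadjusted p under 0.05, 2 were lower (18.2%) and 1 higher (9.09%) in 21 mo versus 18 mo mice, beside 12% and 14% of all genes. In 21 mo/O304 versus 21 mo mice 3 were higher (27.3%) and 1 lower (9.09%), beside 8.27% and 12.4%. Esrra, the estrogen-related receptor that drives many TCA cycle genes, was at 216.0, 233.5 and 214.1 CPM in 18 mo, 123.3, 91.5 and 70 CPM in 21 mo and 144.0, 136.2 and 138.8 CPM in 21 mo/O304 mice. Its groups did not overlap in any pair, with 21 mo the lowest, and unlike most of the 34 genes it was low in 21 mo replicate 1 too. Esrra had log2FC values of -1.22 (SE of 0.19, adjusted p = 0.0626) for 21 mo versus 18 mo, 0.56 (SE of 0.19, adjusted p = 0.187) for 21 mo/O304 versus 21 mo and -0.66 (SE of 0.19, adjusted p = 0.345) for 21 mo/O304 versus 18 mo. Ppargc1b, a coactivator of that receptor, had log2FC values of -0.98 (SE of 0.28, adjusted p = 0.0858) and 0.73 (SE of 0.28, adjusted p = 0.201) in the first and second comparisons. Hif1a, the oxygen-regulated factor known to induce Pdk1, was at 64.1, 56.4 and 60.1 CPM in 18 mo, 77.3, 110.4 and 108.8 CPM in 21 mo and 76.8, 70.8 and 61.4 CPM in 21 mo/O304 mice. It was highest in 21 mo, without overlap, where replicate 1 was close to the highest treated kidney. Gabpa, a nuclear respiratory factor, was at 58.3, 69.4 and 60.5 CPM in 21 mo/O304 mice, above the other 6 libraries at 37.6 to 49.0 CPM, with a log2FC of 0.50 (SE of 0.13, adjusted p = 0.175) against 21 mo mice. Foxo1, a factor known to induce Pdk4, was at 39.7 to 46.5 CPM in 18 mo, 32.8 to 53.1 CPM in 21 mo and 47.9 to 62.7 CPM in 21 mo/O304 mice.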

How the data were processed

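Kidney RNA of 9 mice was sequenced in libraries made with the NEBNext Ultra kit, 1 library per sample, without pooling being stated. Per the submitters' processing notes, the tools named are HISAT2 2.0.5, featureCounts 1.5.0-p3 and DESeq2 1.20.0, with builds GRCm38 and mm10, and strand is not given in the sources used here. The deposited counts are whole reads per gene without normalization, and FPKM values, which the authors derived from count and gene length, were deposited beside them. Columns with the authors' group means, fold changes and p-values were not used.

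The counts of all 9 libraries were fitted with edgeR 4.0.16 (R 4.3.3, filterByExpr at 10 counts and 15 in total, TMM, quasi-likelihood test, 3 group means, 6 residual degrees of freedom), two-sided, with Benjamini-Hochberg adjustment over 15902 genes and a threshold of 0.05. SE and intervals of log2 fold changes come from that fit, which pools the spread of all 3 groups in every comparison. Shares of summed FPKM were not tested. The fit was tested on simulated data, but neither the setting nor the outcome of that test is given here. Nothing is therefore read from it on how the fit handles groups of unequal spread, as found here. Alternatives were DESeq2 1.42.0, limma 3.58.1 (voom with sample weights, or log2 FPKM with a pseudocount of 1 or 0.1), upper-quartile scaling, other filters, the 6 libraries of a comparison alone, a replicate block and leaving out each library. Where leaving out a library left 2 in a group, the spread was likewise pooled over groups. For DESeq2 and for the filter of at least 1 count, shares of all genes are over 28225 genes, many of them with few reads. Nothing beyond the labels says how the mice of a group were kept, so p-values measure the spread between these samples.

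The 34 genes and the other lists were chosen with earlier results of these data known. Values in every library are given for the 12 of the 34 genes with the smallest unadjusted p in the first or second comparison and for the one with the highest FPKM of each role, and at most 5 genes of each other list are described by the same p. Values of other genes were chosen after they were seen.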

Additional observations from a re-analysis of the deposited data

How the results depend on the processing

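The direction of the median over the 34 genes was kept under all alternatives for 21 mo versus 18 mo (-0.73 to -0.20) and for 21 mo/O304 versus 21 mo (0.23 to 0.68). Numbers of called genes were not kept. For 21 mo versus 18 mo, the 0 genes with an adjusted p under 0.05 became 2 in DESeq2 (5.88%, beside 7.29% of all genes). They became 1 with every gene of at least 1 count (2.94%, beside 2.04%) and 25 in voom with sample weights (73.5%, beside 52.9%). When a library was left out they became 0 to 18 (18 without 21 mo replicate 1, 52.9% beside 25.4%). The 9 at an unadjusted p under 0.05 (26.5%, beside 26.1% of all genes) became 3 with the 6 libraries alone (8.82%, beside 20.6%), 26 in voom (76.5%, beside 58.9%) and 3 to 26 when a library was left out (26 without 21 mo replicate 1, 76.5% beside 40.2%). For 21 mo/O304 versus 21 mo, 0 became 26 in voom (76.5%, beside 41.1% of all genes) and 0 to 20 with a library left out (20 without 21 mo replicate 1, 58.8% beside 23.1%). The unadjusted 4 (11.8%, beside 20.7%) became 1 with the 6 libraries alone (2.94%, beside 14.0%), 26 in voom (76.5%, beside 50.3%) and 0 to 25 with a library left out (25 without 21 mo replicate 1, 73.5% beside 38.7%). For 21 mo/O304 versus 18 mo, 0 became 1 (2.94%) in DESeq2 (beside 0.446% of all genes), with the 6 libraries alone (beside 0.144%) and in voom (beside 2.61%). With a library left out it became 0 to 1 (1 without 21 mo replicate 3, 2.94% beside 0.0744%). The unadjusted 1 (2.94%, beside 9.66%) became 2 with every gene of at least 1 count (5.88%, beside 5.62%), 3 with the 6 libraries alone (8.82%, beside 20.3%) and 4 in voom (11.8%, beside 22.2%). With a library left out it became 1 to 2 (2 without 18 mo replicate 2, 5.88% beside 6.47%, and without 21 mo/O304 replicate 1, 5.88% beside 8.03%). The largest numbers with a library left out were those without 21 mo replicate 1 in the comparisons with 21 mo mice. The voom fit gives each library its own weight, and which of its features raised the numbers was not tested.

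With the replicate block, no gene of the 34 was called in any comparison, and the unadjusted numbers were 10 for 21 mo versus 18 mo (29.4%, beside 24.4% of all genes), 7 for 21 mo/O304 versus 21 mo (20.6%, beside 19.5%) and 2 for 21 mo/O304 versus 18 mo (5.88%, beside 9.07%). Same-numbered libraries correlated in their deviations from group means by -0.0567, 0.152 and 0.145 between 21 mo and 18 mo, by 0.094, -0.13 and 0.168 between 21 mo/O304 and 21 mo, and by 0.175, -0.128 and 0.123 between 21 mo/O304 and 18 mo, so the numbers were not taken as pairs.

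Under at least 1 alternative, 6 of the 34 genes turned sign for 21 mo versus 18 mo (Glud1, Idh1, Idh3a, Me2, Me3 and Pdk1), 5 for 21 mo/O304 versus 21 mo (Idh1, Idh3a, Me2, Pdk4 and Pdp1) and 12 for 21 mo/O304 versus 18 mo, and the cause was not tested. Values follow for those of them described in full. The log2FC of Glud1 for 21 mo versus 18 mo ranged from -0.31 to 0.06 with a library left out. That of Pdk4 for 21 mo/O304 versus 21 mo was 0.08 with the replicate block, 0.15 on log2(FPKM + 1), 0.18 on log2(FPKM + 0.1) and -0.55 to 0.25 with a library left out, being 0.25 and 0.07 without 21 mo replicates 1 and 2. That of Pdp1 in the same comparison was 0.01 in voom and -0.74 to 0.01 with a library left out. The lowest count of the 34 genes was 77.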
